A study of Mus musculus with 14 samples.

Results

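The nuclear-encoded subunits of the mitochondrial respiratory chain and ATP synthase were followed through livers with and without hepatocyte Cul3 on 2 diets. They were taken by gene name, as every gene of the deposited table whose symbol starts with Nduf, Uqcr, Atp5, Cox4, Cox5, Cox6, Cox7 or Cox8, together with Sdha, Sdhb, Sdhc and Sdhd, leaving out 3 names that contain -ps. This gave 91 of 43548 genes: 36 structural subunits of complex I (7 core and 29 supernumerary), 4 of complex II, 8 of complex III, 19 subunits and paralogs of complex IV, 15 subunits of complex V and 9 assembly factors or related genes that share the names. Ndufa4 was counted with complex IV, in which its protein is found. No gene was listed under the name Cox4i1, the ubiquitous paralog of Cox4i2, so the complex IV values do not include it.

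The samples were 14 liver libraries of C57BL/6 mice whose Cul3 gene, coding for the cullin 3 backbone of a family of ubiquitin ligases, was floxed in every group. KO mice on Western diet (WD, 4 libraries), WT mice on WD (4), KO mice on control diet (CD, 3) and WT mice on CD (3) had been fed for 13 weeks, were given an adeno-associated virus by the tail vein, and stayed on their diet for 5 more weeks. In KO mice the virus carried Cre recombinase behind TBG, a promoter active in hepatocytes, so other liver cells keep an intact Cul3. The WT mice received a virus without Cre; the sources used here give no sex or age. No label says that each library came from its own animal, and p-values therefore reflect the variation among these libraries, part of which may be technical.

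The respiratory chain passes electrons from NADH (complex I) and succinate (complex II) through ubiquinone, complex III and cytochrome c to oxygen at complex IV. Complexes I, III and IV pump protons across the inner mitochondrial membrane, and complex V, the ATP synthase, makes ATP as protons flow back. Most subunits are encoded in the nucleus and a few of the hydrophobic ones in mitochondrial DNA, and hepatocytes draw on the chain for fatty acid oxidation, urea synthesis and gluconeogenesis.

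RNA was read as tags near the 3' ends of polyadenylated transcripts and deposited as FPKM (fragments scaled by transcript length and library size). A 3' tag does not depend on transcript length, so each test sets a gene's FPKM against itself in other libraries, and FPKM of different genes given side by side or summed are not read as relative amounts. The libraries were split into 2 sets by their sparse genes, with the number of sets fixed and not tested. The median share of sparse genes at 1 common ratio was 7.08% for pairs in set 1, 4.78% in set 2 and 2.63% across the sets. Shares ran from 3.01 to 11.8% in set 1 and from 2.02 to 18.1% in set 2, and reached 3.82% across the sets. The ranges overlap, so some pairs within a set were no more alike by this share than some pairs across the sets. Set 2 held all 3 KO libraries on CD, WT on WD replicates 1 and 2 and KO on WD replicate 3. Set 1 held all WT libraries on CD (replicates 1, 3 and 4), WT on WD replicates 3 and 4 and KO on WD replicates 1, 2 and 4, so on CD genotype and set cannot be told apart within the diet. Cul3 measured 18.5 to 26.6 FPKM in KO against 7.46 to 25.9 FPKM in WT on WD, and 11.3 to 18.3 FPKM in KO against 23.9 to 29.6 FPKM in WT on CD. Tags fall at the 3' end and the sources used here do not name the deleted exons, so this gene checks neither the deletion nor the labels. Nqo1, a known target of NRF2, which cullin 3 ligases degrade, stood at 30.5 to 50.3 FPKM in KO and 2.05 to 5.06 FPKM in WT on WD, and at 17.5 to 29.5 FPKM in KO and 3.38 to 6.21 FPKM in WT on CD.

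Of the 91 genes, 85 reached 1 FPKM in at least 3 libraries and were tested. The 6 others were all complex IV paralogs known from other tissues or conditions: Cox4i2 (lung, hypoxia), Cox7a1 and Cox8b (heart and skeletal muscle), Cox7b2 and Cox8c (testis) and Ndufa4l2 (hypoxia). Cox4i2, Cox7b2 and Cox8c were listed at 0 in all 14 libraries, and the other 3 exceeded 0 in 1 library each. The muscle form Cox6a2 and the testis form Cox6b2 were tested at low levels. Cox6a2 ran from 0 to 3.25 FPKM in KO against 0 to 1.23 FPKM in WT on WD. The liver form Cox6a1 ran from 1290 to 1978 FPKM in KO against 999.8 to 1699 FPKM in WT on WD. Markers of striated muscle and brown adipocytes summed to 0.84 to 6.31 FPKM in KO on WD, 4.83 to 23.2 in WT on WD, 0.788 to 2.47 in KO on CD and 0.118 to 2.43 in WT on CD, and 9 of the 17, among them Ckm and Mb, were listed at 0 in every library. Of that list only Cidea, a lipid droplet protein also made in fatty liver, passed a test; it was lower in KO than in WT on WD by 3.38 on the log2 scale (limma adjusted p = 6.93e-05).

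Several subunits that the complexes cannot do without were nevertheless close to 0. Sdhb, the iron-sulphur protein of complex II, ran from 1.09 to 2.91 FPKM over all libraries, and Uqcrc1, a core protein of complex III, from 1.14 to 4.38 FPKM. Cox5a, a complex IV subunit, was listed at 0 in 4 libraries and did not exceed 2.07 FPKM. All 13 subunits encoded in mitochondrial DNA were listed at 0 in every library. Such values can be failed estimates, so nothing is read from them about the tissue. Sdhb, Uqcrc1 and Cox5a passed the filter and are included in the complex means below.

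By complex, most group means lay within the spread of the libraries. The mean log2(FPKM + 1) over the 29 supernumerary complex I subunits was 6.28 ± 0.11 in KO on WD, 6.19 ± 0.15 in WT on WD, 6.45 ± 0.03 in KO on CD and 6.25 ± 0.05 in WT on CD (SD, n = 4, 4, 3 and 3). On CD its KO libraries all lay above the WT libraries (6.42 to 6.48 against 6.20 to 6.29), as did those of the 9 assembly factors (3.42 to 3.67 against 3.18 to 3.36), while complex II lay below (4.49 to 4.53 against 4.87 to 5.61). For core complex I and complexes III, IV and V the CD groups overlapped. On WD the KO libraries all lay above the WT libraries for complex IV (6.658 to 6.837 against 5.464 to 6.595). They also did for the 9 assembly factors (3.273 to 3.531 against 2.869 to 3.222). For both parts of complex I and for complexes II, III and V the WD groups overlapped. Complex II averaged 5.44 ± 0.40 in KO on WD, 4.59 ± 0.83 in WT on WD, 4.51 ± 0.02 in KO on CD and 5.26 ± 0.37 in WT on CD, with 3.60 to 4.85 in set 2 libraries and 4.87 to 5.77 in set 1 libraries. WT on WD replicate 2 had the lowest mean of its group in every complex, and in complex III it was at 7.12 where the other 3 libraries were at 7.70 to 7.72. The summed FPKM of all members was 4.79 to 5.79% of the total in KO and 3.59 to 4.96% in WT on WD, and 5.90 to 6.03% in KO and 4.45 to 4.82% in WT on CD. These are shares of FPKM and not of RNA, and in whole liver fewer cells of a type and less RNA per cell cannot be told apart.

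**Figure D1:**
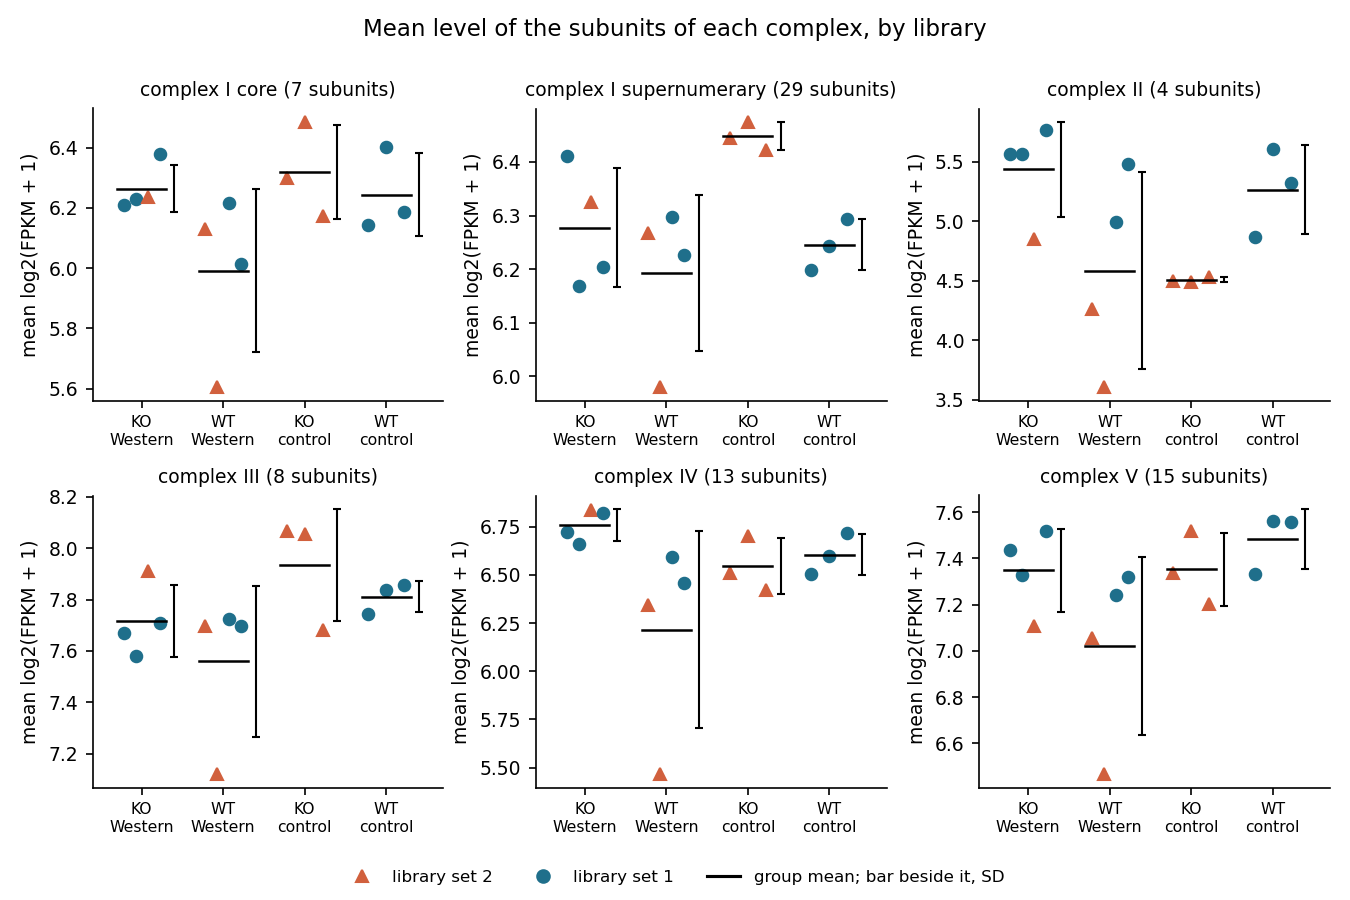
Mean log2(FPKM + 1) of the tested subunits of each complex (vertical axes) in each library, by genotype and diet; triangles are library set 2 and circles set 1, and lines and bars give the group mean and SD. KO libraries on CD lie above WT on CD for the 29 supernumerary complex I subunits, and the complex II means of set 2 (3.60 to 4.85) lie below those of set 1 (4.87 to 5.77).

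The complex II subunit with the widest spread was Sdhd, a membrane anchor that holds the enzyme at its quinone site. Sdhd measured 112, 180, 13.5 and 169 FPKM in KO on WD replicates 1 to 4, against 5.80, 2.76, 48.8 and 176 FPKM in WT on WD replicates 1 to 4. It measured 7.13, 4.62 and 9.45 FPKM in KO on CD, against 36.03, 149 and 111 FPKM in WT on CD. Every low value was a set 2 library (2.76 to 13.5 FPKM) and every high value a set 1 library (36.03 to 180 FPKM). With a set term in the model, Sdhd was lower in set 2 by 3.86 ± 0.50 SE on the log2 scale (limma adjusted p = 0.00102). The same fit called 4 more members lower in set 2, against 5.87% of all tested genes. They were Cox7c (complex IV, log2 difference -2.61), Ndufa1 (complex I, -1.86), the catalytic beta subunit Atp5b (complex V, -1.73) and the delta subunit Atp5d (-0.79). Cox7a2l, counted with complex IV, and the complex I subunit Ndufa9 were higher in set 2 (0.64 and 0.62), against 1.10% of all tested genes. The sources used here do not say what the sets are.

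**Figure D2:**
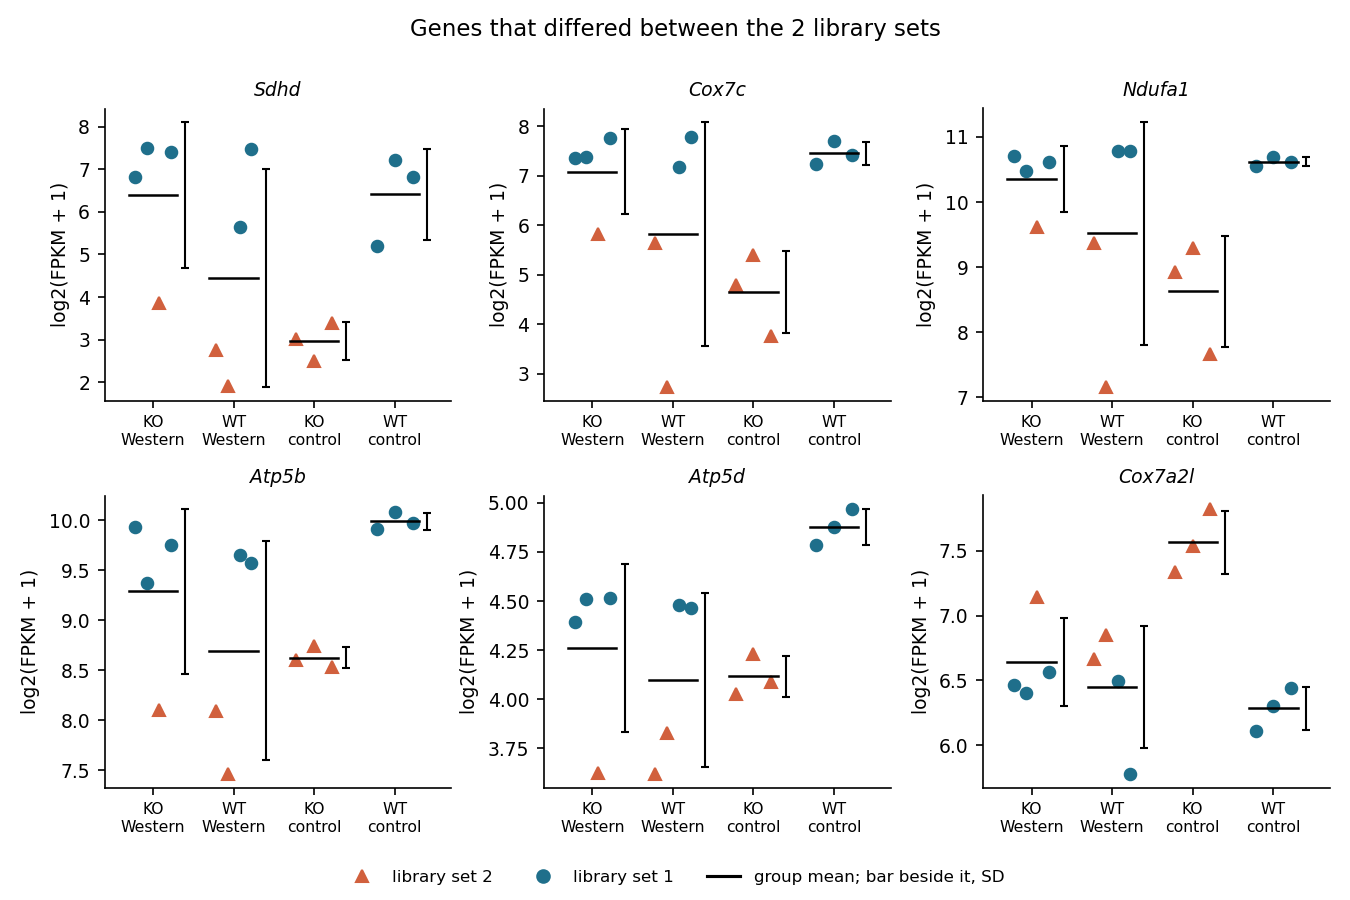
Levels of 6 members that differed between the library sets, as log2(FPKM + 1) in each library by genotype and diet; triangles are set 2, circles set 1, lines and bars the group mean and SD. Sdhd, Cox7c, Ndufa1, Atp5b and Atp5d are low in the triangles, which are 1 of 4 KO and 2 of 4 WT libraries on WD and all 3 KO libraries on CD.

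A further spread ran through 2 libraries of set 2. WT on WD replicate 2 was the lowest of the 14 libraries for 31 of the 85 members (36.5%, against 18.6% of all tested genes). Among them was Atp5j, the F6 subunit of complex V, at 51.8 FPKM there against 289, 370 and 393 FPKM in the other WT libraries on WD. Uqcrfs1, the Rieske iron-sulphur protein of complex III, was at 52.5 FPKM there against 272, 297 and 374 FPKM in the others. The same genes were low in KO on CD replicate 3, where Atp5j measured 66.6 FPKM against 181 and 275 FPKM, and Uqcrfs1 105 FPKM against 238 and 285 FPKM, in the other KO libraries on CD. KO on CD replicate 3 was at the same time the highest of all libraries for 21 members (24.7%, against 16.8% of all tested genes), among them Ndufa9 (204 FPKM), Cox7a2l (225 FPKM) and Ndufs6 (286 FPKM). Over the 85 members the departure of WT on WD replicate 2 from replicate 1 and that of KO on CD replicate 3 from replicates 1 and 2 had a Pearson r of 0.62 and a Spearman rho of 0.60 across genes. Over all 10870 tested genes r was 0.25, and genes are not independent replicates.

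On WD, 1 complex I subunit was called lower and 1 higher in KO, and the other members were not called. With 4 libraries per group, a missing call does not show that a member was unchanged. The mean log2(FPKM + 1) over all 85 tested members was 6.251 to 6.384 in KO and 5.621 to 6.25 in WT, so the KO libraries lay above the WT libraries by a narrow margin. The question was whether the hepatocyte deletion alters these transcripts in mice already fed a Western diet. Of the 85 members 1 rose (6.01% of all tested genes) and 1 fell (1.0%), and the members' median difference was 0.23 on the log2 scale, as was that of all tested genes. The groups did not overlap for 11 members (12.9%), against 13.7% of all tested genes. Medians were 0.28 for core and 0.06 for supernumerary complex I subunits, 0.57 for complex II, 0.12 for complex III, 0.33 for complex IV and 0.23 for complex V. With median centring, which takes off the shift common to all genes, the members' median was -0.058, and 0 members rose and 3 fell. With quantile normalization 0 rose and 2 fell. The share of all tested genes called in these fits is not given.

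Ndufa7, a supernumerary subunit of the matrix arm of complex I (ENSMUSG00000041881, mm10 chromosome 17, 33824572 to 33838317, plus strand), fell in KO on WD. Its levels were 51.3, 27.4, 47.1 and 39.4 FPKM in KO, against 69.6, 80.6, 68.9 and 57.7 FPKM in WT. All KO libraries lay below all WT libraries, also within each library set. Its log2 difference was -0.76 ± 0.19 SE (limma adjusted p = 0.0276), and -0.69 with a set term (adjusted p = 0.0349). On CD it measured 66.1, 76.5 and 63.6 FPKM in KO against 74.7, 66.5 and 74.4 FPKM in WT, groups that overlap, and its difference of differences between diets had an adjusted p of 0.145. Over 27 alternatives its value on WD ran from -1.05 to -0.58 and its adjusted p from 0.00981 to 0.605, and the call was lost without KO on WD replicate 2 or 4 and without WT on WD replicate 1 or 2.

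Ndufs5, a supernumerary subunit on the intermembrane-space side of complex I (ENSMUSG00000028648, mm10 chromosome 4, 123712710 to 123718202, minus strand), rose in KO on WD. Its levels were 21.4, 19.8, 20.5 and 16.2 FPKM in KO, against 7.56, 7.62, 17.4 and 6.22 FPKM in WT. WT replicate 3 lay among the KO libraries, so the groups overlap, and the other 3 WT libraries lay below all of them. The log2 difference was 1.04 ± 0.26 SE (limma adjusted p = 0.0278), and 0.99 with a set term (adjusted p = 0.0393). The call was lost under 14 of 27 alternatives, with adjusted p from 0.00113 to 0.512 over all of them, among them the fits without KO on WD replicate 1, 2 or 3 and without WT on WD replicate 1, 2 or 4. Its 3' end has a near-identical copy, BC002163, whose level was 1.66, 1.56, 1.37 and 7.28 FPKM in KO and 1.89, 20.9, 2.67 and 5.85 FPKM in WT, so the assignment of reads between the 2 is uncertain.

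Sdha, the catalytic flavoprotein of complex II (ENSMUSG00000021577, mm10 chromosome 13, 74322254 to 74350280, minus strand), was the steadiest of the 4 succinate dehydrogenase subunits. On WD it measured 199.9, 175, 247 and 233 FPKM in KO, against 183, 163, 139 and 153 FPKM in WT. KO replicate 2 lay below WT replicate 1 and the other KO libraries above all WT libraries. Its difference was 0.41 ± 0.14 SE on the log2 scale (limma adjusted p = 0.102), while a model with a set term called it at 0.48 (adjusted p = 0.0358). That model called Sdha and Ndufs5 higher and Ndufa7 lower, against 6.72% of all tested genes higher and 1.03% lower. Of the other complex II subunits, Sdhc averaged 63.0 ± 10.1 FPKM in KO and 40.8 ± 17.0 FPKM in WT on WD (SD, n = 4 each, adjusted p = 0.19), and Sdhd differed by 1.95 (adjusted p = 0.294).

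Among members that did not pass on WD, several had groups that did not overlap or small p values, in both directions. Lower in KO were Ndufa3 (-0.66, limma adjusted p = 0.0842), Uqcr11 (-0.38, 0.11) and Ndufa11 (-0.50, 0.141), whose groups overlapped. The members described next were higher in KO. Atp5f1, the peripheral-stalk subunit b of ATP synthase, measured 333, 290, 312 and 426 FPKM in KO, against 208, 154, 271 and 255 FPKM in WT, and all KO libraries lay above all WT libraries. Its difference was 0.63 (95% interval 0.22 to 1.04, limma adjusted p = 0.0655). Ndufv2, an iron-sulphur subunit of the NADH-oxidizing module, measured 235, 208, 236 and 235 FPKM in KO, against 163, 91.8, 182 and 196 FPKM in WT (difference 0.58, adjusted p = 0.144). Ndufa4 measured 172, 215, 180 and 244 FPKM in KO, against 111, 32.2, 170 and 147 FPKM in WT (1.03, adjusted p = 0.155). Ndufaf6, a complex I assembly factor, had the smallest p among assembly factors (1.24, adjusted p = 0.0884), with 48.7, 46.9, 65.0 and 19.2 FPKM in KO against 26.2, 8.31, 12.4 and 29.4 FPKM in WT. Markers of other cells also differed on WD: 5 of 13 tested Kupffer cell and macrophage markers were called higher in KO (Clec4f, C1qc, Vsig4, Ly6c2 and Cd68), with list sums of 218 to 401 FPKM in KO and 97.2 to 197 FPKM in WT and no marker at 0 throughout. In the endothelial list 2 of 8 were higher (Lyve1 and Oit3), in the cholangiocyte list 1 of 2 (Sox9), and in the hepatocyte list 1 of 20 was lower (Serpina1c); in the lymphoid and neutrophil list 0 of 5 and in the stellate list 0 of 8 were called. Their part in the members' values was not tested.

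**Figure D3:**
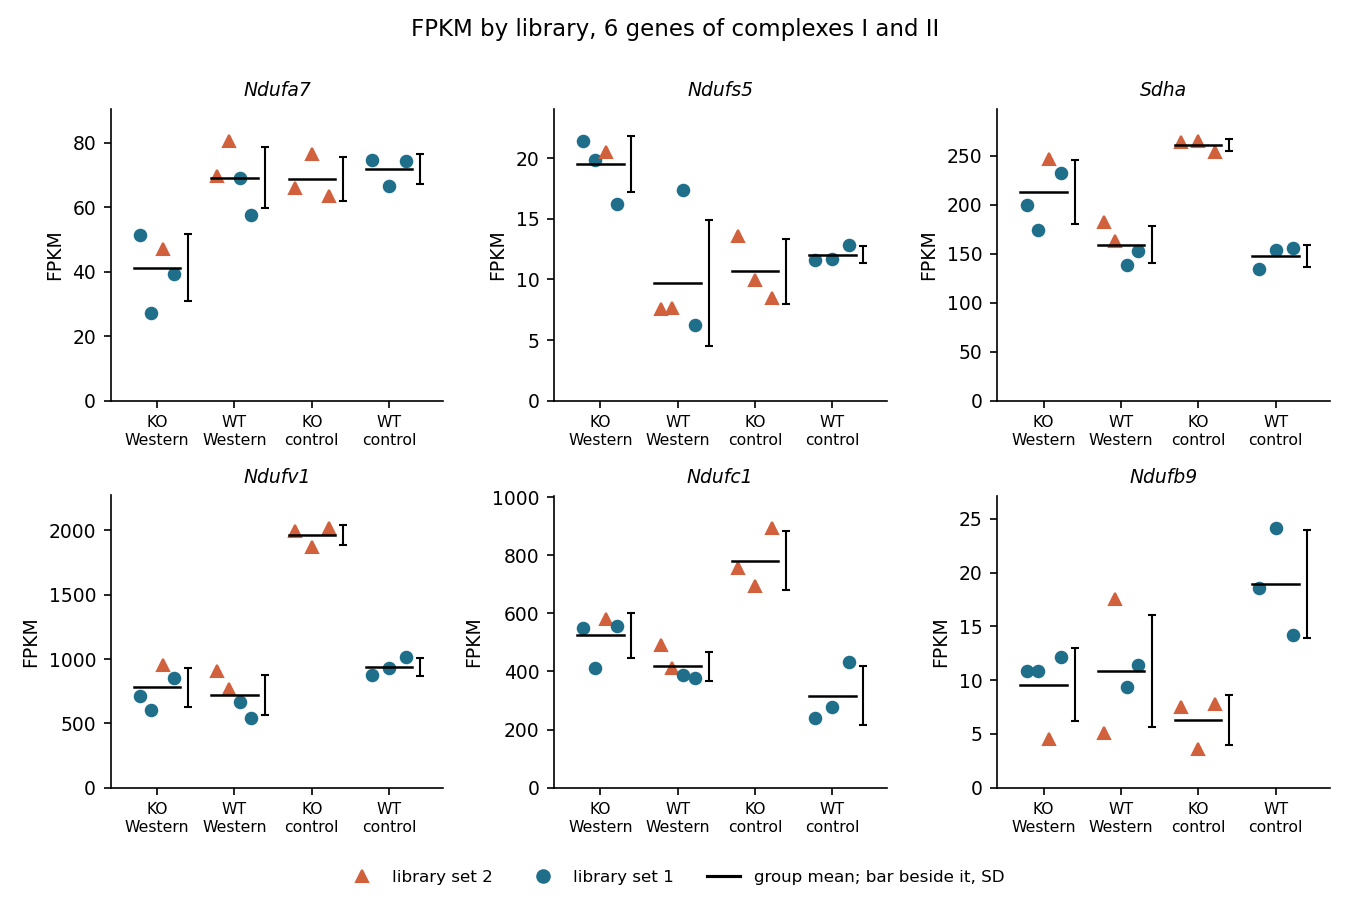
FPKM of 6 subunits of complexes I and II in each library, by genotype and diet; triangles are library set 2, circles set 1, lines and bars the group mean and SD. Ndufa7 is low only in KO on WD (27.4 to 51.3 FPKM), Ndufs5 is high in KO on WD, and Ndufv1 and Ndufc1 are high in KO on CD, where every library is of set 2.

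Promoters of 73 members were read from RefSeq (GRCm38.p6) as the 250 bases before the annotated start, to show what letters lie upstream of genes that moved. The motif of NRF1, a nuclear respiratory factor known to act on many respiratory chain genes, has the letters shown in capitals for Cox6a1 and was found on either strand in 6.85% of the 73 members and in 0.877% of 27025 genes. The ETS-type motif CCGGAAG, read by GABPA (nuclear respiratory factor 2), was in 17.8% of members and 7.83% of genes. Shares were 6.85 and 4.70% for AAGGTCA (estrogen-related receptors), 1.37 and 1.83% for AAGATGGC (YY1), and 10.96 and 11.5% for TGACNNNGC, the antioxidant response element read by NRF2. In the same order, shares were 5.26, 10.5, 0, 0 and 5.26% in the 19 members higher in KO on CD. They were 7.84, 21.6, 9.80, 1.96 and 13.7% in the 51 other tested members. In the 12 members lower on WD in KO they were 16.7, 8.33, 0, 0 and 8.33%. Each motif was searched on both strands, matches of different motifs may overlap, and a match is a description of letters only. The stretches below, which no annotated exon covers, are those of Ndufs5 (higher in KO on WD), Ndufv1 (lower on WD in KO, described below) and Cox6a1 (a member with the NRF1 motif); capitals mark motif matches, written 5' to 3' on the gene's strand.
Ndufs5 (chr4:123718203-123718436, minus strand): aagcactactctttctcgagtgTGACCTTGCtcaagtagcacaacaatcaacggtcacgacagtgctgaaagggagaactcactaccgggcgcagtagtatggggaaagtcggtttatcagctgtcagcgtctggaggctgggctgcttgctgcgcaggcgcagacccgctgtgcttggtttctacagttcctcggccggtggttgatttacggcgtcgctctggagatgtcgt
Ndufv1 (chr19:4012807-4013005, minus strand): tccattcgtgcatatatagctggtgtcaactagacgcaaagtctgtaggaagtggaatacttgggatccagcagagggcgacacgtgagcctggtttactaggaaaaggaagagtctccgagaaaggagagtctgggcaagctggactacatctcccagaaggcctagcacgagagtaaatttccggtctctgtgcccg
Cox6a1 (chr5:115348982-115349129, minus strand): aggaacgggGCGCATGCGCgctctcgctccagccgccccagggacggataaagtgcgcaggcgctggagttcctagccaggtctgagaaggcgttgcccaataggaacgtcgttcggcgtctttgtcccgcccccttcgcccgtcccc
In Ndufs5 the capitals TGACCTTGC, at -228 from the start, hold an antioxidant response element and, reversed, the estrogen-related receptor motif, which overlap there. In Cox6a1 the capitals at -162 are the NRF1 motif, an ETS-type match at -16 lies outside the printed stretch, and the Ndufv1 stretch held none of the 5 motifs. Cox6a1 did not pass in any comparison; it averaged 1595 ± 293 FPKM in KO and 1391 ± 324 FPKM in WT on WD, and 2011 ± 354 FPKM in KO and 1525 ± 32.2 FPKM in WT on CD (SD, n = 4, 4, 3 and 3).

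On CD, 21 of the 85 members were higher and 1 lower in KO, mostly in complex I, but every KO library there was of set 2. Among all tested genes 11.7% were higher and 3.35% lower. By complex, 2 of 7 core and 11 of 29 supernumerary complex I subunits rose, with 1 of 4 in complex II, 2 of 8 in complex III, 2 of 13 in complex IV, 3 of 15 in complex V and 0 of 9 assembly factors. The members' median of 0.10 was below that of all genes (0.18), with complex I supernumerary subunits at 0.42, assembly factors at 0.31, complex IV at 0.14, core complex I at 0.03, complex III at -0.03, complex V at -0.10 and complex II at -0.19. The KO and WT libraries did not overlap for 50 members (58.8%), against 41.6% of all tested genes. With a set term 0 members were called (limma; 1.16% of all genes; 43, or 50.6%, had an unadjusted p under 0.05 in the model without it, against 33.5% of all genes), and the members' median was 0.31. The separate share of genotype therefore cannot be told apart within CD, and the values below describe KO set 2 libraries against WT set 1 libraries.

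In the core of complex I, Ndufv1, which binds NADH and flavin, measured 1998, 1874 and 2018 FPKM in KO on CD, against 878, 928 and 1013 FPKM in WT on CD. All KO libraries lay above all WT libraries, and the log2 difference was 1.06 ± 0.21 SE (limma adjusted p = 0.00659). With a set term it was 0.62 (adjusted p = 0.209). The core subunits that did not pass had differences of -0.99 to 0.04. The lowest was that of Ndufs7, a gene near 0, at 0.29 to 1.12 FPKM in KO and 0.81 to 4.88 FPKM in WT. The next lowest was that of Ndufs1, at -0.48.

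Among supernumerary subunits Ndufc1 and Ndufa9 led by p. Ndufc1 measured 757, 693 and 894 FPKM in KO, against 239, 277 and 432 FPKM in WT (log2 difference 1.34 ± 0.22 SE, limma adjusted p = 0.00252). Ndufa9 measured 178, 149 and 204 FPKM in KO, against 60.3, 71.8 and 75.3 FPKM in WT (1.34 ± 0.25 SE, adjusted p = 0.00571), and is among the genes higher in set 2. The other 9 that rose, Ndufa2, Ndufa6, Ndufa10, Ndufa12, Ndufa13, Ndufb5, Ndufb8, Ndufb10 and Ndufs6, had differences of 0.61 to 0.96. Ndufb9 was the member that fell. It measured 7.46, 3.61 and 7.74 FPKM in KO on CD, against 18.6, 24.1 and 14.2 FPKM in WT on CD, and its difference of -1.48 ± 0.42 SE (adjusted p = 0.0317) was lost without any one of these 6 libraries.

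In complex II, Sdha measured 265, 265 and 254 FPKM in KO on CD, against 135, 153 and 156 FPKM in WT on CD. The groups lay far apart with little spread, and the log2 difference was 0.82 ± 0.17 SE (limma adjusted p = 0.00819; 0.55 and adjusted p = 0.214 with a set term). The other 3 subunits were not called on CD, Sdhb at 0.01, Sdhc at -0.40 and Sdhd at -3.45 (adjusted p = 0.979, 0.474 and 0.075). In complex III the small subunits Uqcr10 (1197 ± 95.2 FPKM in KO and 605 ± 50.9 FPKM in WT, SD, n = 3 each) and Uqcr11 (906 ± 60.8 and 627 ± 39.7 FPKM) rose by 0.98 and 0.53 on the log2 scale (adjusted p = 0.0097 and 0.0361). The call of Uqcr11 was lost without any one of the 6 CD libraries, as well as with centring, quantile normalization and a set term. The 2 core proteins, the Rieske protein and 3 other subunits of complex III did not pass, with differences of -0.40 to 0.41.

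In complex IV, Cox7a2l measured 161, 184 and 225 FPKM in KO on CD, against 68.2, 78.0 and 85.9 FPKM in WT on CD. Its difference was 1.28 ± 0.27 SE on the log2 scale (limma adjusted p = 0.0103). Cox6b1, which faces cytochrome c, averaged 2470 ± 127 FPKM in KO and 1558 ± 62.8 FPKM in WT (0.66, adjusted p = 0.0153). Of the paralogs, Cox6a1, Cox7a2, Cox7b and Cox8a were not called (0.38, -0.26, 0.51 and -0.28), nor were Cox6b2 (1.61, adjusted p = 0.134) and Cox6a2 (0.14). In complex V, Atp5g1, which makes the rotating c ring together with its paralogs, measured 395, 470.2 and 450.3 FPKM in KO against 263, 237 and 254 FPKM in WT (0.80 ± 0.16 SE, adjusted p = 0.00819). Atp5j2 and Atp5k, small membrane subunits, rose by 0.69 and 0.60. The paralogs Atp5g2 and Atp5g3 make the same c subunit and were not called, Atp5g3 with 2959 ± 216 FPKM in KO and 2145 ± 166 FPKM in WT (0.46, adjusted p = 0.135).

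The CD counts depended on scaling and on single libraries. The share of all tested genes called in the same fits is not given, so these changes are not read as particular to the members. Median centring gave 10 higher and 3 lower and a members' median of -0.0072, and quantile normalization 11 higher and 3 lower and -0.028. Without KO on CD replicate 3 or WT on CD replicate 3, 10 members were called, and without WT on CD replicate 1, 12. Ndufv1, Ndufc1, Ndufa9, Ndufb10, Sdha, Uqcr10, Cox7a2l and Atp5g1 passed in each fit with 1 library left out. The call of Cox6b1 was lost without KO on CD replicate 3 or WT on CD replicate 1 or 3, that of Atp5j2 without KO on CD replicate 3, and that of Atp5k without any CD library other than KO replicate 2. Members' transcripts are short (median 704 bases, against 1804 for tested genes). Genes up to 500 bases long had a median of -0.15 on CD, while the 11 members of that length had a median of 0.53. From 500 to 700 bases the 30 members were at -0.03, against 0.14 for all genes. Between 700 and 1000 bases 20 members were at 0.04, against 0.19. Between 1000 and 2000 bases 20 members were at 0.47, against 0.22, and above 2000 bases 4 members were at 0.17, against 0.20. Of the 85 members 27 have a near-identical 3' end elsewhere in the transcriptome, among them the called Ndufa12, Ndufs6, Uqcr11, Atp5g1, Atp5j2 and Atp5k, whose values are uncertain to that extent. The copy of Uqcr11, Gm16418, measured 43.3, 253 and 51.2 FPKM in KO and 73.7, 205 and 253 FPKM in WT on CD. On CD 2 of 13 Kupffer cell and macrophage markers (Ly6c2 and Clec4f) and 2 of 8 endothelial markers (Stab2 and Lyve1) were higher in KO. In the hepatocyte list Apoc3 and Apoh were higher, and Cps1, Fgg, Apoa2 and Tat lower, of 20 tested, and the lymphoid and stellate lists had 0 of 5 and 0 of 8; their part in the result was not tested.

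**Figure D4:**
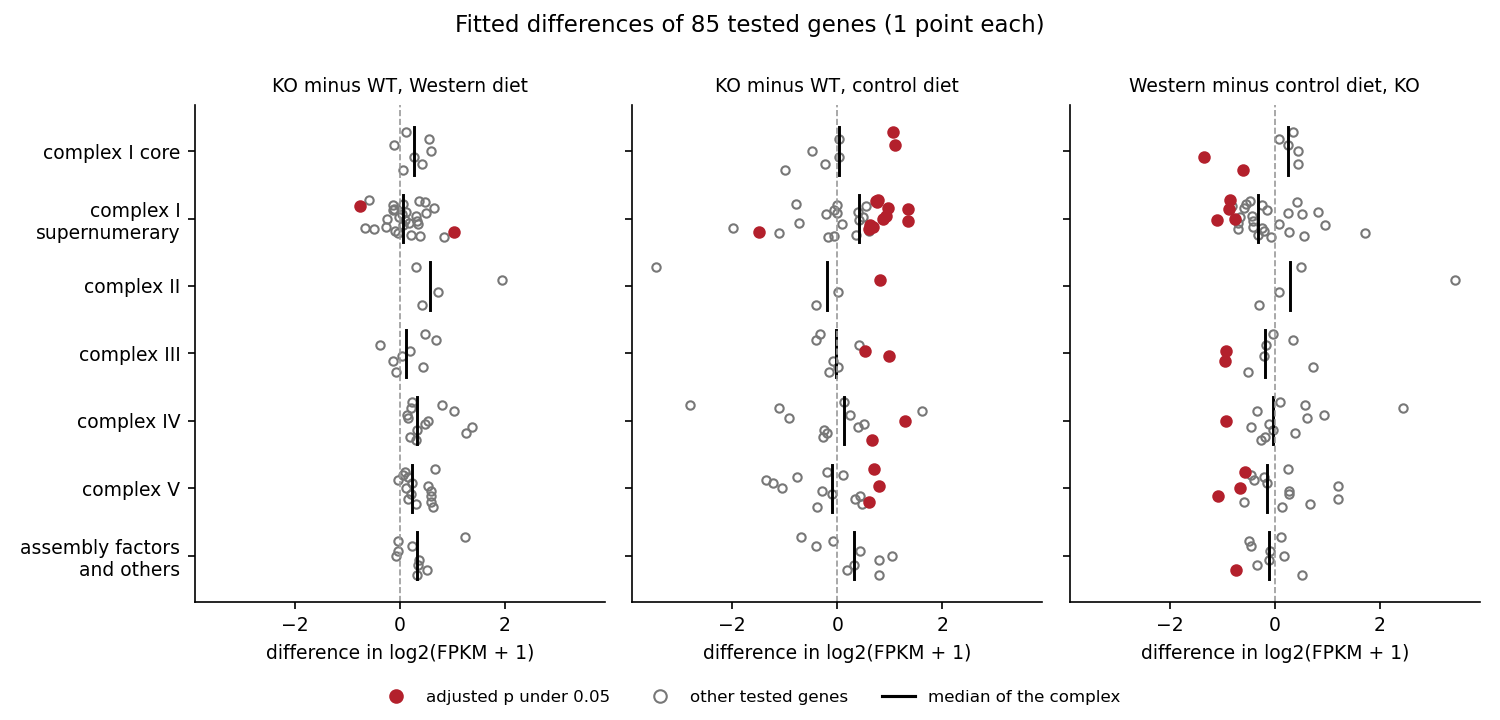
Fitted difference in log2(FPKM + 1) of each of the 85 tested members (points), by complex, for KO minus WT on WD, KO minus WT on CD and WD minus CD in KO; red points passed an adjusted p of 0.05, open points did not, and black lines are medians. On WD 2 points are red, on CD 22, of which 12 are supernumerary complex I subunits, and for diet in KO 13; Sdhd lies at -3.45 on CD and at 3.43 for diet in KO without passing.

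Between diets in KO, 13 members were lower on WD and 0 higher, against 2.55% of all tested genes lower and 3.83% higher. This comparison uses the same 3 KO libraries on CD as the one above. The members' median was -0.16, against 0.09 for all genes, and the groups did not overlap for 34 members (40.0%), against 26.9% of all tested genes. Ndufv1 had the lowest difference of the 85. It measured 709, 606, 950 and 852 FPKM in KO on WD, against 1998, 1874 and 2018 FPKM in KO on CD. Every WD library lay under every CD library, also within set 2 (950 FPKM against 1874 or more), and the log2 difference was -1.35 ± 0.19 SE (limma adjusted p = 0.00348). With a set term it was -1.02 (adjusted p = 0.0336), the single member called there, with 0.221% of all genes called lower. Over 26 alternatives its value ran from -1.54 to -1.02, and the call was lost in the fit of set 2 alone (adjusted p = 0.386), which holds 1 KO library on WD.

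Further members lower on WD in KO were Ndufa7, Ndufa11, Ndufb5 and Ndufs6 (complex I), Uqcr10, Uqcr11 (complex III), Cox7a2l (complex IV), Atp5g1, Atp5j2, Atp5k (complex V) and the assembly factor Ndufaf2. Atp5k measured 159, 165, 187 and 175 FPKM in KO on WD, against 365, 314 and 425 FPKM in KO on CD (log2 difference -1.09 ± 0.16 SE, limma adjusted p = 0.00466). Ndufs6, a subunit next to a zinc site of complex I, averaged 108 ± 4.60 FPKM on WD and 236 ± 44.2 FPKM on CD (SD, n = 4 and 3; -1.10, adjusted p = 0.00491). Uqcr11 averaged 470.2 ± 46.0 FPKM on WD and 906 ± 60.8 FPKM on CD (-0.95, adjusted p = 0.00491). With a set term these 3 stood at -0.91, -0.95 and -0.81 (adjusted p = 0.0557, 0.0569 and 0.056). Centring gave 0 higher and 21 lower, and quantile normalization 1 higher and 9 lower. For these and the next fits the share of all tested genes called is not given. Their counts are therefore not read as particular to the members. The count was 4 without KO on CD replicate 1 or 3, 5 to 7 without KO on WD replicate 1, 2 or 4 or KO on CD replicate 2, 22 without KO on WD replicate 3 and 26 without WT on WD replicate 2. Atp5k, Ndufs6 and Uqcr11 passed in each of these fits, and each other member listed lost its call in the fit without KO on CD replicate 1 and in that without KO on CD replicate 3. In the stellate list 3 of 8 markers (Col1a2, Lrat and Col3a1) were higher on WD in KO, with list sums of 152 to 189 FPKM on WD and 156 to 166 FPKM on CD, and in the hepatocyte list 1 was higher (Fgg) and 2 lower (Serpina1c and Ttr) of 20. Their part was not tested.

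Between diets in WT, 1 member was lower and 0 higher on WD, against 0.635% and 0.662% of all genes, and the groups did not overlap for 18 members (21.2%), against 15.5% of all tested genes. The member called was Ndufaf2, an assembly factor that guides a late step of complex I. Ndufaf2 measured 25.4, 28.5, 34.4 and 25.8 FPKM in WT on WD, against 45.0, 52.1 and 47.8 FPKM in WT on CD, and all WD libraries lay below all CD libraries. The log2 difference was -0.75 ± 0.15 SE (limma adjusted p = 0.0268), and with a set term, where 0 members and 0.699% of all genes were called, also -0.75 (adjusted p = 0.0561). In KO the levels were 32.0, 35.7, 39.3 and 35.6 FPKM on WD, against 60.5, 60.5 and 58.8 FPKM on CD, a difference of -0.74 ± 0.15 SE (adjusted p = 0.018), and its difference of differences was 0.01 (95% interval -0.44 to 0.46). Ndufaf2 passed in both diet comparisons, which share no library. Their p values are not independent, since 1 fit of all 14 libraries gave the spread for both. The WT call was lost without WT on CD replicate 1, 3 or 4, without WT on WD replicate 1 or 4, and with the groups alone. The KO call was lost without KO on CD replicate 1 or 3 and with a set term (-0.74, limma adjusted p = 0.11). The members' median in WT was -0.18, against 0.04 for all genes.

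The difference between the KO effects on WD and on CD was called for 0 of the 85 members (limma; 0.340% of all genes), and for 0 with a set term (0.0184% of all genes). At an unadjusted p under 0.05 there were 36 members (42.4%), against 26.9% of all genes. Uqcr11 and Ndufb5 were among those nearest to the threshold (-0.91 and -1.11, adjusted p = 0.0614 and 0.0615). Without WT on WD replicate 3, WT on WD replicate 4 or KO on WD replicate 3 the count was 6, 14 or 12. Among genes averaging 5 FPKM or more it was 4. The share of all tested genes called in these fits is not given. An effect that passed on 1 diet and not on the other is thus not shown to differ between them.

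Genes that serve the chain but lie outside the name rule were read from lists written with the members. Atpif1, the inhibitor that keeps ATP synthase from running backwards, was higher in KO on both diets, with 219 ± 45.2 FPKM in KO and 88.0 ± 25.4 FPKM in WT on WD, and 380.4 ± 31.0 FPKM in KO and 116 ± 4.41 FPKM in WT on CD (SD, n = 4, 4, 3 and 3). Its log2 differences were 1.34 on WD (limma adjusted p = 0.00298) and 1.71 on CD (0.00152), and with a set term 1.44 on WD (0.00113) and 1.30 on CD, where it was not called (0.0746). In the list of 17 tested respiratory genes that holds it, 1 was higher and 0 lower on WD, and 2 were higher and 1 lower on CD, where Etfa, an electron carrier from fatty acid oxidation, was lower (-3.66, adjusted p = 0.0411; -0.26 with a set term), a call lost without any one CD library. Of 19 regulators of mitochondrial biogenesis, 2 were higher and 1 lower in KO on WD and 2 higher on CD. Ppargc1b, a coactivator of nuclear genes for mitochondrial proteins, was higher on WD by 1.28 (adjusted p = 0.000837) and on CD, with 29.4 ± 4.91 FPKM in KO and 14.2 ± 2.06 FPKM in WT (SD, n = 3 each; adjusted p = 0.0097), and the mitochondrial deacetylase Sirt3 by 0.64 and 0.87 (0.022 and 0.00741). Neither was called on CD with a set term, Ppargc1b at 0.72 (adjusted p = 0.231) and Sirt3 at 0.58 (0.205), and both were on WD; Sirt3 was not called on WD without KO on WD replicate 3 or 4, with centring or with quantile normalization. Ppara, the receptor that drives fatty acid oxidation genes, was lower on WD (-0.57, adjusted p = 0.048; 0.122 without KO on WD replicate 1, and lost without most other single libraries), while Ppargc1a, Nrf1, Tfam and Esrra were not called on either diet.

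On CD, 6 of 38 further assembly factors were higher and 1 lower in KO (Uqcc1 and Cox10 by 0.98 and 1.11), 6 of 19 tricarboxylic acid cycle genes higher and 1 lower (Idh3g by 1.04, Pdha1 by 0.59), 7 of 28 import and outer membrane genes higher (Timm44 by 1.04, the channel Vdac1 by 1.10) and 9 of 72 mitochondrial ribosomal proteins higher and 2 lower (Mrpl54 by 0.92). Over all tested genes on CD the shares were 11.7% higher and 3.35% lower. On WD, 0 genes of these 4 lists were called. Cytosolic ribosomal proteins, short transcripts from outside the mitochondrion, had 7 of 82 higher and 3 lower on CD and 4 higher (Rpl32, 593 ± 21.3 FPKM in KO and 282 ± 85.6 FPKM in WT, SD, n = 4 each) on WD. Between diets in KO, 4 of 28 import genes were lower on WD (Timm17b by -1.01), against 2.55% of all tested genes, with 4 mitochondrial ribosomal proteins lower and 1 higher, 1 cycle gene lower (Sucla2) and 1 assembly factor higher (Timmdc1 by 1.31). With a set term, 0 genes of these 5 lists were called on CD, in KO against WT. On WD that fit called 1 import gene and 5 cytosolic ribosomal proteins higher in KO, against 6.72% of all tested genes.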

How the data were processed

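Liver RNA of 14 libraries was made into QuantSeq 3' FWD libraries from total RNA and sequenced on a NovaSeq, per the labels' protocols. The authors deposited 1 table of FPKM values per gene; the tool Cufflinks and the genome build mm10 come from the submitters' processing notes. The aligner, annotation and treatment of multi-mapping reads were not given in the sources used here. Read depth is unknown, so no counting interval is printed; FPKM sums ran from 443818 to 523079 and 8600 to 9970 genes reached 1 FPKM per library. 1 gene that held a placeholder in 8 libraries was left out. The closest pair of libraries correlated at 0.958 on the log2 scale.

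From these FPKM values, log2(FPKM + 1) entered limma (version 3.58.1, R 4.3.3): a group-means model of all 14 libraries with 10 residual degrees of freedom and trended eBayes. The 10870 genes that reached 1 FPKM in 3 or more libraries were tested. A gene was called at a Benjamini-Hochberg adjusted p below 0.05 over all of them, and all adjusted p values are limma's. Differences on this scale are too small for genes with low FPKM. The code was tested on simulated data.

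Members and gene lists were chosen with earlier results of these data known, so their counts are not independent evidence. Named genes were the members called in any comparison, per complex the 2 with the highest mean FPKM and the 2 with the smallest p in each KO comparison, the succinate dehydrogenase subunits, the tissue paralogs and up to 4 called genes per list; other named genes were chosen after their values were seen. An item that this rule takes is not reported here. Library sets are 2 average-linkage clusters of library pairs' shares of sparse genes, those above 0 in 8 or fewer libraries, at a common ratio within 0.004 log2 units. Gene positions and lengths are from GENCODE M21 (mm10). Near-identical 3' ends were found with blastn 2.17.0 (at least 95% identity over at least 75 of the last 300 bases). Replicate numbers did not pair libraries across groups. Alternatives were a pseudocount of 0.1, no filter, a mean of at least 5 FPKM, quantile normalization, median centring, the library set as a term, a replicate block, the groups alone, removal of the trend with length, eBayes without trend and leaving out each library; fits of single sets, and of the length trend with the set term, were added after seeing the data.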

Additional observations from a re-analysis of the deposited data

Results flagged for a closer look

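Among 70 groups of 4 libraries examined, 5 held a library that stood apart from the other 3 by more than Dixon's 95% critical value; chance gives about 1 in 20. The core complex I mean of KO on WD replicate 4 was 6.38 on the log2 scale, above the other KO libraries on WD at 6.21 to 6.24. The complex III mean of WT on WD replicate 2 was 7.12, below the others at 7.70 to 7.72. Atp5g1 in KO on WD replicate 4 was 8.36 on the log2 scale (327 FPKM), above the others at 8.01 to 8.04. Ndufb9 in KO on WD replicate 3, a set 2 library, was 2.48 (4.57 FPKM), below the others at 3.56 to 3.71. Ndufc1 in KO on WD replicate 2 was 8.69 (411 FPKM), below the others at 9.11 to 9.18.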

How the results depend on the processing

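No called member changed sign under any alternative run. In KO against WT on CD, 22 members were called; 0 were with the library set as a term, with or without the length trend removed, 12 with the replicate block, 13 with median centring, 14 with quantile normalization and 10 to 32 with 1 library left out, and the median of 0.10 was 0.31 with the set as a term or with a mean of at least 5 FPKM. In KO against WT on WD, 2 were called; 0 were with the block, with the groups alone and in set 1 or set 2 alone, and 0 to 3 with 1 library left out. Its median of 0.23 was -0.0065 with the length trend removed, 0.033 with that and the set as a term, 0.095 in set 1, 0.38 in set 2, -0.058 with centring and 0.080 with quantile normalization. In WT between diets, 1 was called; 0 were with the block, the groups alone, the length trend removed, the set as a term, both of these, or set 1 alone, and 0 to 1 with 1 library left out. In KO between diets, 13 were called; 4 were with the block, 1 with the set as a term (with or without the length trend removed), 0 in set 2 alone, 21 with centring, where the median of -0.16 was -0.34, and 4 to 26 with 1 library left out. For the difference between diets 0 were called, with 4 at a mean of at least 5 FPKM and 0 to 14 with 1 library left out, and the median of 0.01 was -0.25 with the length trend removed, -0.13 with the set as a term, -0.15 with both and -0.17 with centring. With 1 library left out, medians ran from 0.073 to 0.20 (KO on CD), 0.14 to 0.29 (KO on WD), -0.26 to -0.068 (diet in WT), -0.19 to -0.071 (diet in KO) and -0.049 to 0.14 (difference). Correlations of same-numbered libraries ran from -0.30 to 0.16, so the numbers do not pair them. The causes were not tested. Counts from alternatives other than the set term stand without the share of all tested genes called in the same fit. Unknown depth limits the low members, and an FPKM of 0 may be a failed estimate.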
